A study of Macaca mulatta with 27 samples.

Results

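The 6 genes POU5F1, NANOG, PRDM14, DPPA4, L1TD1, and SALL4, a set of core pluripotency factors chosen by name, were followed through 27 bulk RNA-seq libraries of rhesus monkey pluripotent stem cells (PSCs). All 6 symbols were present in the count tables, among 17967 symbols in all. The study compared primed PSCs, which resemble the epiblast after implantation, with cells submitted to 7 protocols meant to install naive pluripotency, the state of the pre-implantation epiblast. There were 6 libraries of primed cells and 3 libraries each of E-NHSM, TL-CDK8i, TL2i, 4i/L/b, NHSM-v, LCDM (EPS), and t2iLGöY cells. Every group came from LyonES-tGFP-(S3), a single clone of a rhesus ESC line that carries tauGFP under the ubiquitous CAG promoter and a lentiviral STAT3-ERT2, so the data describe 1 clone. STAT3-ERT2 is a STAT3 fused to a hormone-binding domain that tamoxifen activates. TL2i cells received tamoxifen, LIF, and inhibitors of MEK and GSK3β. In TL-CDK8i cells both kinase inhibitors were replaced by an inhibitor of CDK8 and CDK19. The other 5 media were used without tamoxifen, and primed cells were the untreated control.

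OCT4, the product of POU5F1, binds DNA together with SOX2 and is required for the identity of pluripotent cells. NANOG is a homeodomain protein that binds many of the same regulatory regions, and SALL4 is a zinc-finger protein that takes part in that network and in POU5F1 transcription. PRDM14 is a DNA-binding repressor of the PR domain family that acts in pluripotent and early germ cells. DPPA4 is a chromatin-associated protein of early embryos, and L1TD1 is an RNA-binding protein derived from a LINE-1 open reading frame, expressed in ESCs. POU5F1, NANOG, and SALL4 are known to be expressed in both the primed and the naive state, so they serve as markers of pluripotency itself.

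The shallowest library held 7111886 counts, the median library 12201171, and the deepest 20760914. Levels are given as CPM, counts scaled to a common library total after TMM scaling, whose factors lay between 0.93 and 1.08. None of the 36 pairs of libraries of the same group held identical values (0 pairs). Each protocol was compared with primed cells by edgeR's quasi-likelihood test, with p-values adjusted over all genes tested and called at 0.05. The labels do not say whether the libraries of a group came from separate cultures, so p-values measure the spread between these libraries, which may be technical. The 7 comparisons share the same 6 primed libraries. Reads that fit pseudogenes or related genes as well as a member may have been split or dropped in counting, and how this was handled is not given in the sources used here.

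The 6 members split the 7 protocols in a graded way. In E-NHSM cells POU5F1 and SALL4 rose, PRDM14 and L1TD1 fell, and NANOG and DPPA4 were not called. In TL-CDK8i cells all 6 fell, to between 10.7% of the primed mean (L1TD1) and 56.7% (DPPA4). In TL2i, 4i/L/b, NHSM-v, LCDM (EPS), and t2iLGöY cells, called the 5 protocols here, all 6 fell again. There POU5F1 was left at 0.0246% to 0.545% of the primed mean, NANOG at 0% to 0.237%, and PRDM14 at 0% to 0.344%. DPPA4 was left at 0.0825% to 1.60%, L1TD1 at 0.451% to 4.72%, and SALL4 at 3.44% to 26.1%. The 27 libraries are labelled as ESCs, and 2 of the genes that define such cells, POU5F1 and NANOG, were thus nearly absent from the libraries of the 5 protocols. In bulk RNA, fewer cells that express a gene and less RNA per cell cannot be told apart.

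Of the 42 tests of a member against primed cells, 38 were called lower, 2 higher, and 2 not called. In E-NHSM cells 2 of 6 members were lower and 2 higher, where 15.1% of all genes tested were called lower and 11.1% higher. All 6 were lower in TL-CDK8i cells, where 23.8% of genes were lower and 22.3% higher. They were all lower also in TL2i cells (25.2% of genes lower, 25.6% higher) and in 4i/L/b cells (29% lower, 26.6% higher). The same count of 6 was reached in NHSM-v cells (30.6% lower, 28% higher), LCDM (EPS) cells (28.9% lower, 28.2% higher), and t2iLGöY cells (27.2% lower, 27.1% higher). The median log2 fold change over all genes tested lay between -0.0227 and 0.0695 in the 7 comparisons.

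**Figure D1:**
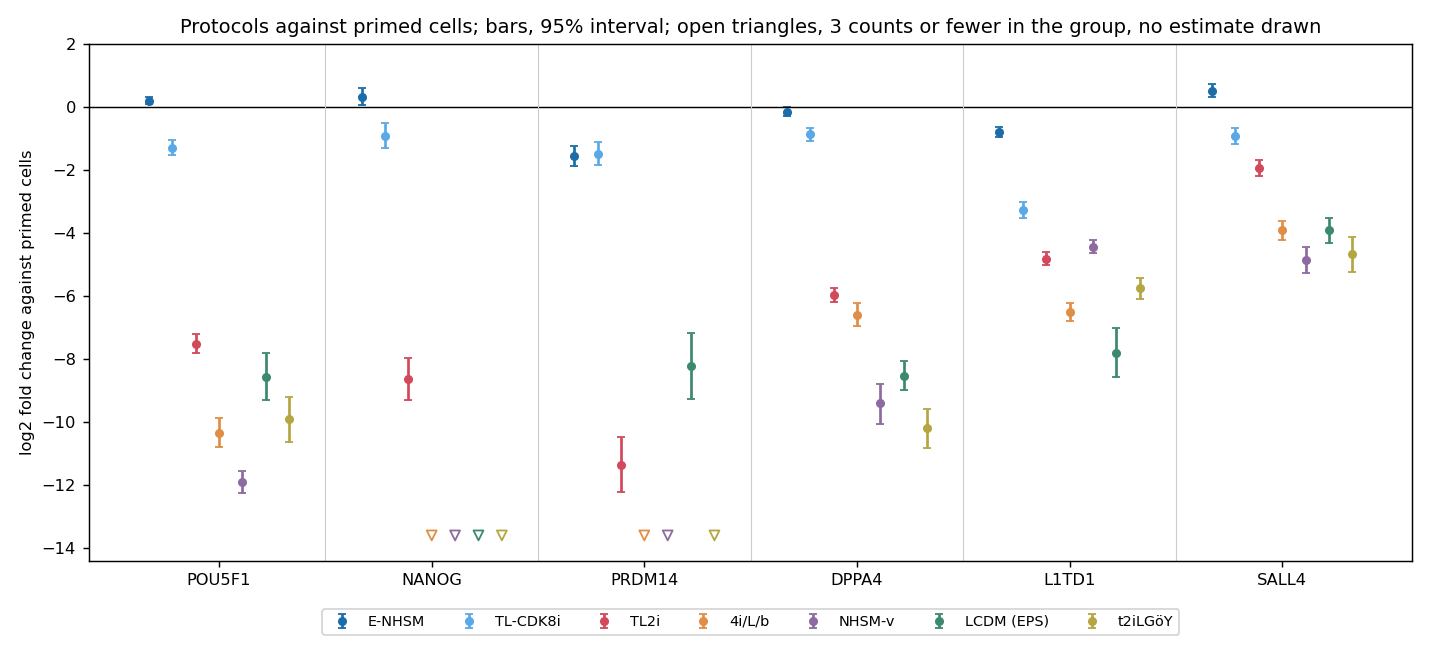
Log2 fold change of each member (x axis, by gene and protocol) in each protocol against primed cells, with 95% intervals from edgeR; open triangles mark groups of 3 counts or fewer, for which no estimate is drawn. E-NHSM lies nearest to 0 for 5 members, TL-CDK8i lies between -3.28 and -0.87, and in the 5 protocols SALL4 lies between -4.87 and -1.94, nearest to 0 in each of them but NHSM-v, where L1TD1 is at -4.43.

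POU5F1 was measured at 1100 CPM in the lowest, 1180 at the median, and 1300 in the highest primed library. The 3 E-NHSM libraries had 1350, 1400, and 1340 CPM, all above the primed range. The log2 fold change was small, 0.20 (standard error 0.06, adjusted p = 0.014 from edgeR), and the call depended on 1 library: without E-NHSM replicate 2 it was 0.19 (adjusted p = 0.076). With all 8 groups in one fit it was 0.21 (adjusted p = 0.41). TL-CDK8i libraries had 484, 418, and 606 CPM, below every primed library (log2 fold change -1.29, standard error 0.10, adjusted p = 2.5e-07). TL2i libraries kept 7.69, 5.13, and 6.51 CPM, from 157, 88, and 92 counts. LCDM (EPS) libraries had 5.98, 2.36, and 1.14 CPM, and t2iLGöY libraries 1.64, 1.80, and 0.0723 CPM, the last from a single count. In 4i/L/b libraries POU5F1 was at 0.577, 0.486, and 1.64 CPM, and in NHSM-v libraries at 0.226, 0.206, and 0.44 CPM, from 2, 2, and 5 counts. POU5F1 in these 15 libraries was therefore still counted in each one, at most 7.69 CPM. The fall was 183-fold in TL2i (log2 -7.52, standard error 0.14, adjusted p = 1.1e-13) and 3850-fold in NHSM-v cells (log2 -11.91, standard error 0.16, adjusted p = 3.4e-16), the smallest and the largest of the 5.

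NANOG ranged from 107 to 157 CPM in primed libraries, with a median of 135. E-NHSM libraries had 143, 176, and 189 CPM and overlapped with primed ones. The log2 fold change of 0.33 (95% interval 0.07 to 0.59) missed the threshold at an adjusted p of 0.058 and passed it under several alternatives, among them leaving out E-NHSM replicate 1 (0.45, adjusted p = 0.033) or Primed replicate J2 (0.38, adjusted p = 0.032). TL-CDK8i libraries had 73.1, 51.3, and 97.6 CPM, all below the primed range (log2 fold change -0.91, standard error 0.18, adjusted p = 8.5e-04). In TL2i libraries NANOG had 11, 1, and 5 counts, 0.539, 0.0583, and 0.354 CPM (log2 fold change -8.64, standard error 0.31, adjusted p = 6.5e-11). No count was seen in any NHSM-v or t2iLGöY library. Against a floor of 3 counts over the 3 libraries, NANOG was at least 1340-fold lower than in primed cells in NHSM-v and at least 1940-fold lower in t2iLGöY. In 4i/L/b and LCDM (EPS) cells 2 counts were seen in each group. The ratio of primed to pooled level was 1940 in 4i/L/b (95% counting interval 538 to 16000) and 3830 in LCDM (EPS) (1060 to 31600). Such intervals and floors cover counting error only.

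PRDM14 fell in both E-NHSM and TL-CDK8i cells and was the only member not called between them. Primed libraries lay between 203 and 354 CPM with a median of 280. E-NHSM libraries had 88.6, 102, and 92.6 CPM and TL-CDK8i libraries 118, 82.2, and 108 CPM, each below the lowest primed library. The log2 fold changes were -1.56 (standard error 0.15, adjusted p = 3.1e-07) and -1.48 (standard error 0.17, adjusted p = 8.2e-06). Between both protocols the difference was -0.10 (95% interval -0.72 to 0.52, adjusted p = 0.80). In LCDM (EPS) libraries PRDM14 had 41, 10, and 1 counts, 2.33, 0.471, and 0.0541 CPM, a log2 fold change of -8.22 (standard error 0.48, adjusted p = 4.7e-09). TL2i libraries had 5, 0, and 0 counts, and the pooled level was 2860 times lower than in primed cells (95% counting interval 1230 to 8820). There were 2 counts in 4i/L/b and 1 count in t2iLGöY cells, with ratios of 4020 (1110 to 33200) and 12000 (2160 to 476000). No count was seen in NHSM-v cells, at least 2770-fold lower.

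**Figure D2:**
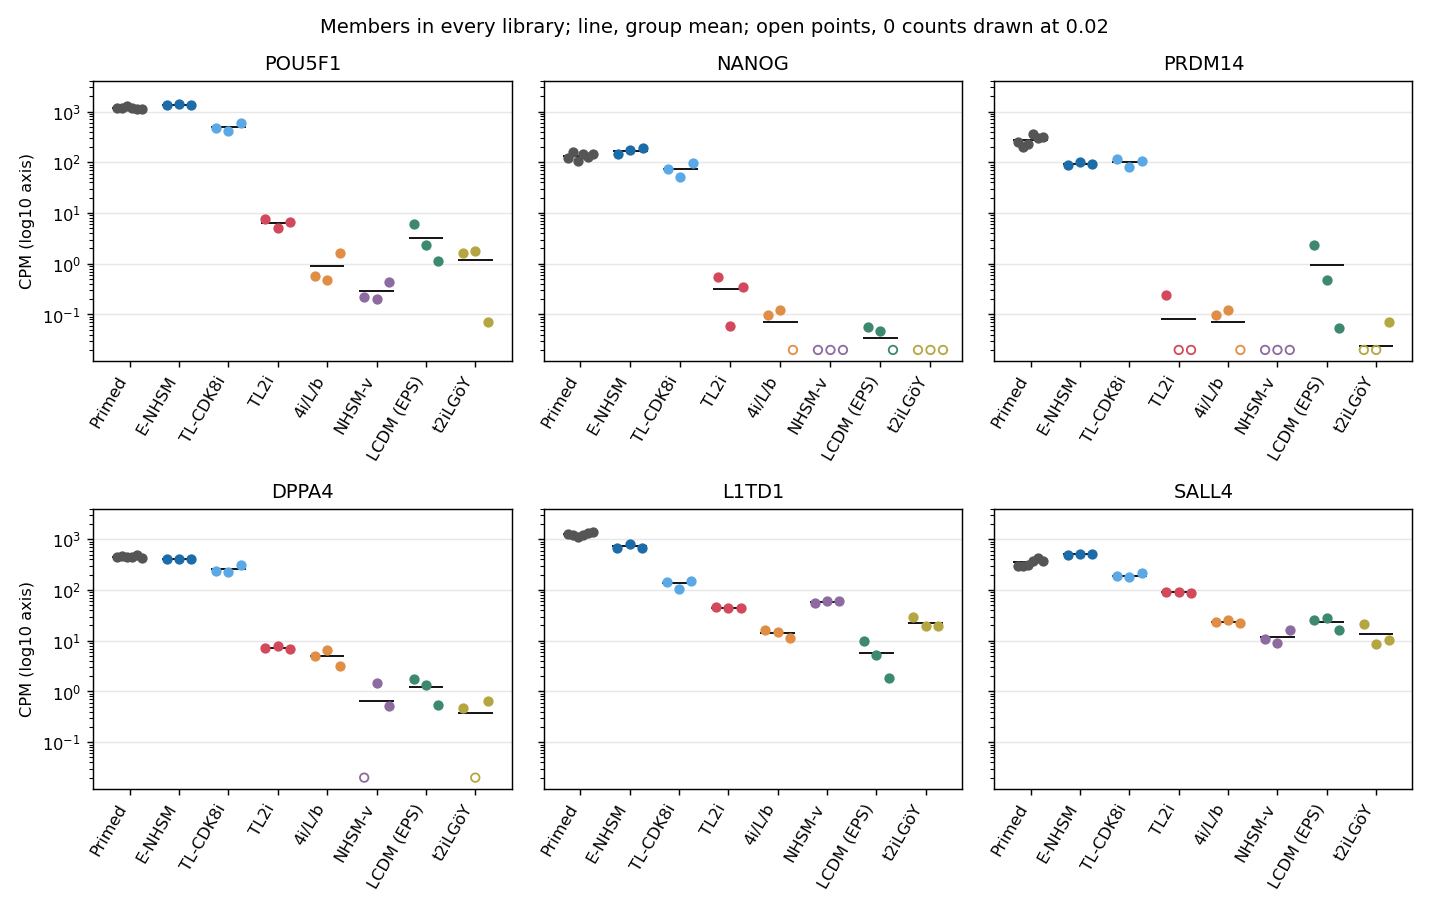
CPM (log10 axis) of each member in each of the 27 libraries by group, with a line at the group mean; open points are libraries with 0 counts, drawn at 0.02. POU5F1, NANOG, PRDM14, and DPPA4 lie in an upper band of primed, E-NHSM, and TL-CDK8i libraries and a lower band of the 5 protocols, with no library of the 5 above 7.75 CPM, whereas L1TD1 and SALL4 reached 61.4 and 92.1 CPM in the lower band.

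DPPA4 was the most even member among primed libraries, from 432 to 492 CPM with a median of 455, a coefficient of variation of 4.55%. E-NHSM libraries had 416, 416, and 405 CPM, all below the primed range, but the log2 fold change of -0.15 (95% interval -0.29 to -0.01) was not called (adjusted p = 0.11). TL-CDK8i libraries had 239, 227, and 308 CPM (log2 fold change -0.87, standard error 0.10, adjusted p = 5.4e-06). TL2i libraries had 7.11, 7.75, and 7 CPM and 4i/L/b libraries 5.09, 6.56, and 3.18 CPM, log2 fold changes of -5.97 and -6.59 (standard errors 0.10 and 0.17, adjusted p = 1.1e-13 and 4.7e-12). LCDM (EPS) libraries had 1.76, 1.37, and 0.541 CPM. NHSM-v libraries had 0, 14, and 6 counts and t2iLGöY libraries 7, 0, and 9 counts, so that in each group 1 library lacked DPPA4 reads. The smallest fall of the 5 was thus 62.5-fold (TL2i) and the largest 1180-fold (t2iLGöY, log2 -10.20, standard error 0.28, adjusted p = 8.5e-13).

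L1TD1 followed another order than the other members. Primed libraries ranged from 1130 to 1380 CPM with a median of 1250. E-NHSM libraries had 683, 800, and 685 CPM, below all primed libraries (log2 fold change -0.80, standard error 0.07, adjusted p = 1.5e-07). TL-CDK8i libraries had 145, 107, and 151 CPM, a fall of 3.28 on the log2 scale (standard error 0.12, adjusted p = 1.5e-10), while no other member fell there by more than 1.48. NHSM-v libraries, in which POU5F1 was lowest and NANOG and PRDM14 had no count, kept 55.6, 60.9, and 61.4 CPM of L1TD1. TL2i libraries had 47.2, 43.6, and 43.4 CPM, and t2iLGöY libraries 29.6, 19.3, and 19.4 CPM. L1TD1 was at 16.3, 14.8, and 11.4 CPM in 4i/L/b and lowest in LCDM (EPS) libraries, at 9.85, 5.33, and 1.84 CPM. The fall in NHSM-v cells was 21.5-fold (log2 -4.43, standard error 0.09, adjusted p = 3.5e-14) and that in LCDM (EPS) cells 223-fold (log2 -7.80, standard error 0.36, adjusted p = 3.9e-10).

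SALL4 kept the largest share of its primed level in each of the 5 protocols but NHSM-v, where L1TD1 kept 4.72% and SALL4 3.44%. Primed libraries ranged from 301 to 420 CPM with a median of 345. E-NHSM libraries had 494, 502, and 515 CPM, all above the primed range (log2 fold change 0.52, standard error 0.10, adjusted p = 4.4e-04). TL-CDK8i libraries had 187, 178, and 213 CPM (log2 fold change -0.91, standard error 0.12, adjusted p = 2.1e-05). TL2i libraries were close to each other, at 92.1, 91.8, and 89.0 CPM, and fell by 1.94 on the log2 scale (standard error 0.12, adjusted p = 1.6e-08), 3.85-fold. 4i/L/b libraries had 23.5, 25.5, and 22.2 CPM, and LCDM (EPS) libraries 25.2, 28.0, and 16.2 CPM. t2iLGöY libraries had 20.9, 8.61, and 10.5 CPM and NHSM-v libraries 10.7, 9.16, and 16.2 CPM. The fall of 4.87 in NHSM-v cells (standard error 0.19, adjusted p = 2.2e-11) was the largest, 29.3-fold.

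The protocols were then compared with each other, in 21 pairs from a single fit of their 21 libraries. Of the 126 comparisons of a member between 2 protocols, 9 had 3 counts or fewer in both groups and were not read, 103 of the other 117 were called, and 14 were not. The 6 NANOG pairs and 3 PRDM14 pairs left unread all lay within 4i/L/b, NHSM-v, LCDM (EPS), and t2iLGöY. E-NHSM cells had higher levels than TL-CDK8i cells of 5 members, where 57.8% of all genes tested were called, with log2 differences from 0.70 for DPPA4 (standard error 0.18, adjusted p = 1.5e-03) to 2.45 for L1TD1 (standard error 0.22, adjusted p = 2.2e-10). The DPPA4 difference was not called by DESeq2 (0.67, adjusted p = 0.20). All 6 were higher in E-NHSM than in TL2i (60.6% of genes called), 4i/L/b (65%), NHSM-v (69%), LCDM (EPS) (66%), and t2iLGöY cells (67.3%). All 6 were likewise higher in TL-CDK8i than in 4i/L/b (52.6%), NHSM-v (60.4%), LCDM (EPS) (63.7%), and t2iLGöY cells (62.9%).

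TL-CDK8i and TL2i differ in their kinase inhibitors, and all 6 members were higher in TL-CDK8i cells (53% of genes called). The difference was largest for PRDM14, 9.90 on the log2 scale (standard error 0.58, adjusted p = 5.8e-13), for which TL2i libraries held 5 counts. It was 7.75 for NANOG (standard error 0.34), 6.24 for POU5F1 (standard error 0.27), and 5.11 for DPPA4 (standard error 0.23). L1TD1 and SALL4 differed by 1.55 and 1.05 (standard errors 0.22 and 0.18, adjusted p = 1.1e-06 and 2.6e-05), so that the 6 members moved by unequal amounts between both groups.

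Among the 5 protocols the levels were highest in TL2i cells for POU5F1, NANOG, DPPA4, and SALL4. Compared with 4i/L/b, in which 26.8% of genes were called, TL2i cells had more POU5F1 (log2 difference 2.79, standard error 0.52, adjusted p = 1.5e-04), L1TD1 (1.66, standard error 0.25), and SALL4 (1.94, standard error 0.20), and the other 3 members were not called. TL2i cells had more of 4 members than NHSM-v (51.9% of genes called) and more of 5 than t2iLGöY cells (50.6%). Against LCDM (EPS) cells (50%) they had more of 5 and less PRDM14 (log2 difference -3.12, standard error 0.92, adjusted p = 6.5e-03). The POU5F1 difference of 1.09 in that pair (adjusted p = 9.5e-03) was not called when any of 3 libraries was left out, LCDM (EPS) replicate 2 (0.89, adjusted p = 0.061), LCDM (EPS) replicate 3 (0.70, adjusted p = 0.077), or TL2i replicate 1 (0.92, adjusted p = 0.058). The NANOG call of that pair (adjusted p = 0.015, from 17 counts against 2) was lost without TL2i replicate 1 (adjusted p = 0.14) or LCDM (EPS) replicate 3 (adjusted p = 0.055). That of PRDM14 was lost without LCDM (EPS) replicate 1 (-1.43, adjusted p = 0.20). Against NHSM-v cells the NANOG call (adjusted p = 0.014) rested on TL2i replicate 1 as well (adjusted p = 0.066 without it).

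In the other pairs the members moved both ways. Of the 4 members compared between 4i/L/b and NHSM-v (39.9% of genes called), DPPA4 (log2 difference 2.83, standard error 0.49) and SALL4 (0.95, standard error 0.24) were higher in 4i/L/b and L1TD1 was lower (-2.08, standard error 0.25, adjusted p = 3.0e-07). Between 4i/L/b and t2iLGöY (44.1%), DPPA4 (3.70) and SALL4 (0.85) were higher in 4i/L/b and L1TD1 lower (-0.67, adjusted p = 0.04). The L1TD1 call was lost without 4i/L/b replicate 2 (-0.70, adjusted p = 0.073) or 3 (-0.52, adjusted p = 0.18) or t2iLGöY replicate 1 (-0.43, adjusted p = 0.23). Between NHSM-v and t2iLGöY (49.6%) only L1TD1 was called, higher in NHSM-v (1.41, standard error 0.23, adjusted p = 1.4e-05). The POU5F1 difference there of -1.93 (95% interval -3.91 to 0.05, adjusted p = 0.098) passed without t2iLGöY replicate 3 (-2.46, adjusted p = 0.017) or LCDM (EPS) replicate 1 (-1.96, adjusted p = 0.036), which shares the fit. SALL4 differed by -0.10 (95% interval -0.60 to 0.39), and DPPA4 by 0.87 (95% interval -0.73 to 2.47).

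LCDM (EPS) cells differed from 4i/L/b (48% of genes called) in 4 members, with more POU5F1 and PRDM14 and less DPPA4 and L1TD1. They differed from NHSM-v (54.8%) in 4, with more POU5F1, PRDM14, and SALL4 and less L1TD1 (log2 difference of NHSM-v over LCDM (EPS) 3.44, standard error 0.26, adjusted p = 1.5e-11). DPPA4, not called in that pair (-0.82, 95% interval -2.02 to 0.37), passed without NHSM-v replicate 2 (-1.98, adjusted p = 0.038). They differed from t2iLGöY (35.8%) in 5, with more POU5F1, PRDM14, DPPA4, and SALL4 and less L1TD1 (-2.03, standard error 0.27, adjusted p = 1.1e-06). Many of these calls depended on LCDM (EPS) replicate 1. Without it, POU5F1 was no longer called against 4i/L/b (adjusted p = 0.18) or t2iLGöY (adjusted p = 0.39), PRDM14 not against 4i/L/b (adjusted p = 0.19) or t2iLGöY (adjusted p = 0.051), and DPPA4 not against t2iLGöY (adjusted p = 0.12). DPPA4 was also lost against t2iLGöY without LCDM (EPS) replicate 2 (adjusted p = 0.072) or t2iLGöY replicate 2 (adjusted p = 0.14), and POU5F1 without t2iLGöY replicate 3 (adjusted p = 0.16). Against 4i/L/b, POU5F1 was lost without 4i/L/b replicate 1 (adjusted p = 0.09) or 2 (adjusted p = 0.076) and PRDM14 without 4i/L/b replicate 3 (adjusted p = 0.074).

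In LCDM (EPS) libraries replicate 1 was highest and replicate 3 lowest for POU5F1, PRDM14, DPPA4, and L1TD1, with 5.26, 43.1, 3.26, and 5.35 times the level of replicate 3. For SALL4, replicate 2 was highest and the highest-to-lowest ratio was 1.72. In t2iLGöY libraries POU5F1 was 24.9 times higher in replicate 2 than in replicate 3, where a single count was seen, and SALL4 differed by 2.43 times. In TL-CDK8i libraries replicate 2 was lowest for all 6 members and replicate 3 highest for 5, with ratios from 1.20 for SALL4 to 1.90 for NANOG. E-NHSM libraries differed by at most 1.33 times, for NANOG.

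From highest to lowest mean, POU5F1 ran from E-NHSM through primed, TL-CDK8i, TL2i, LCDM (EPS), t2iLGöY, and 4i/L/b to NHSM-v cells. Steps to and from primed cells were read from the fits with primed cells, and the others from the fit of the protocols. Neighbours differed by an adjusted p under the threshold down to t2iLGöY. The steps from TL2i to LCDM (EPS) and on to t2iLGöY were not called by DESeq2 (adjusted p = 0.16 and 0.1). The difference of t2iLGöY from 4i/L/b (-0.34 for 4i/L/b over t2iLGöY, 95% interval -1.86 to 1.17) was not called, nor was that of 4i/L/b from NHSM-v (1.59, 95% interval -0.65 to 3.83). For NANOG the order was E-NHSM, primed, TL-CDK8i, TL2i, then 4i/L/b and LCDM (EPS), with NHSM-v and t2iLGöY at 0, and from TL2i down no neighbours were called. PRDM14 was highest in primed, then TL-CDK8i and E-NHSM, LCDM (EPS), TL2i, 4i/L/b, t2iLGöY, and NHSM-v cells, the last 4 without a call between neighbours. DPPA4 ran from primed and E-NHSM through TL-CDK8i to TL2i and 4i/L/b (difference 0.58, 95% interval 0.00 to 1.17, adjusted p = 0.14) and then LCDM (EPS), NHSM-v, and t2iLGöY, which were not called from neighbour to neighbour. L1TD1 ran from primed through E-NHSM, TL-CDK8i, NHSM-v, TL2i, t2iLGöY, and 4i/L/b to LCDM (EPS) cells. Its only neighbours without a call were NHSM-v and TL2i (TL2i over NHSM-v -0.42, 95% interval -0.88 to 0.03, adjusted p = 0.11), and they were called without LCDM (EPS) replicate 3 in the fit (-0.42, adjusted p = 0.029). The L1TD1 step from t2iLGöY to 4i/L/b was not called by DESeq2 (-0.69, adjusted p = 0.1). SALL4 ran from E-NHSM through primed, TL-CDK8i, TL2i, 4i/L/b, LCDM (EPS), and t2iLGöY to NHSM-v cells. No call was made between 4i/L/b and LCDM (EPS) (0.06, 95% interval -0.37 to 0.49) or between t2iLGöY and NHSM-v cells.

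E-NHSM and TL-CDK8i cells kept enough reads of every member to compare the members within a library. The ratio of 2 genes' counts in the same library does not depend on library scaling, and since its size depends on transcript length, only its difference between groups was read. There were 30 such comparisons with primed cells, tested by a two-sided exact permutation test of 3 against 6 libraries, whose smallest p is 0.012. Of these, 11 of 15 passed an adjusted p of 0.05 in E-NHSM and 7 of 15 in TL-CDK8i cells. The 15 ratios of a protocol share the same members, so they are not independent of each other. Ratios of other genes were not tested, so how often other pairs would pass is not known. POU5F1 counts were 3.25 to 5.91 times PRDM14 counts in primed libraries and 13.8 to 15.2 times in E-NHSM libraries (exact permutation p = 0.012, adjusted p = 0.02). In TL-CDK8i libraries that ratio was 4.10 to 5.61, within the primed range (exact permutation p = 0.46, adjusted p = 0.52). POU5F1 relative to L1TD1 was 0.824 to 1.15 in primed, 1.75 to 1.98 in E-NHSM, and 3.35 to 4.01 in TL-CDK8i libraries, with no overlap between the 3 groups (exact permutation p = 0.012 and adjusted p = 0.02 for each protocol).

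L1TD1 also fell relative to SALL4, from 3.19 to 4.15 in primed libraries to 1.33 to 1.59 in E-NHSM and 0.602 to 0.772 in TL-CDK8i libraries (exact permutation p = 0.012, adjusted p = 0.02 for each). POU5F1 relative to NANOG was not called in either protocol, at 7.65 to 12.1 in primed, 7.11 to 9.46 in E-NHSM (exact permutation adjusted p = 0.51), and 6.20 to 8.15 in TL-CDK8i libraries (exact permutation adjusted p = 0.13). All 5 ratios with L1TD1 differed from primed cells in each of both protocols. In E-NHSM cells all 5 ratios with PRDM14 differed too. In TL-CDK8i cells 1 of these, PRDM14 relative to SALL4, passed apart from the one with L1TD1, and NANOG, DPPA4, and SALL4 relative to one another gave adjusted p-values from 0.80 to 0.90 (exact permutation).

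**Figure D3:**
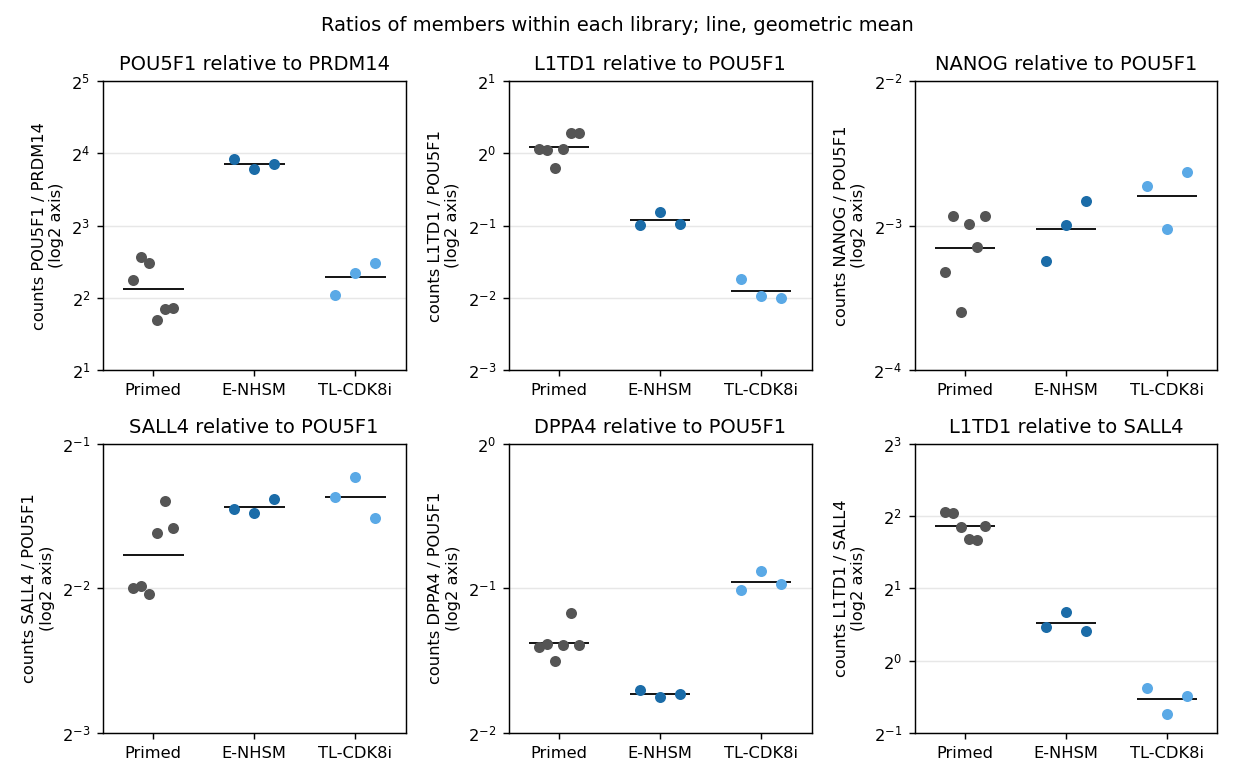
Ratio of the counts of 2 members within each library (log2 axis) in primed, E-NHSM, and TL-CDK8i cells, with a line at the geometric mean. POU5F1 relative to PRDM14 stands apart in E-NHSM libraries (13.8 to 15.2 against 3.25 to 5.91 in primed ones), and L1TD1 relative to POU5F1 and to SALL4 steps down from primed to E-NHSM and on to TL-CDK8i libraries.

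The 6 primed columns carry the letters J and K, 3 libraries each. Levels of PRDM14, SALL4, and POU5F1 did not overlap between the letters, and the share of all genes without overlap was not counted. PRDM14 was at 203 to 252 CPM in the J and 307 to 354 CPM in the K libraries, and SALL4 at 301 to 314 and 375 to 420 CPM, ratios of K to J of 1.42 and 1.28. POU5F1 was lower in K (1100 to 1150 CPM) than in J libraries (1200 to 1300 CPM), a ratio of 0.918. With J or with K libraries alone as the primed group, NANOG in E-NHSM cells was called (log2 fold changes 0.40 and 0.28, adjusted p = 0.048 and 0.049), and each of the other 41 calls against primed cells stayed as given.

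The network around the members was described with 31 further genes, of which 28 were in the tables. ZSCAN10, LEFTY1, and LEFTY2 were not analysed here. Between 26 and 27 could be tested in a protocol, and the shares of all genes called are those given above for each protocol. In E-NHSM cells 5 were higher and 7 lower, at a median log2 fold change of 0.10. In TL-CDK8i cells 4 were higher and 17 lower (median -1.02), and in TL2i cells 2 higher and 20 lower (median -1.54). In 4i/L/b cells 0 were higher and 24 lower (median -3.07), and in NHSM-v cells 1 higher and 24 lower (median -4.82). In LCDM (EPS) cells 1 was higher and 23 lower (median -3.18), and in t2iLGöY cells 2 higher and 22 lower (median -3.86).

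SOX2, the DNA-binding partner of OCT4, fell by less than POU5F1 in the 5 protocols or was not called. Primed libraries had 214 to 337 CPM, and TL2i, 4i/L/b, NHSM-v, and t2iLGöY libraries 72.3 to 116 CPM, falls of 1.29 to 1.91 on the log2 scale. LCDM (EPS) libraries had 325, 323, and 338 CPM of SOX2 (log2 fold change 0.28, standard error 0.14, adjusted p = 0.095) beside 1.14 to 5.98 CPM of POU5F1. SOX2 rose in E-NHSM cells (0.55, standard error 0.12, adjusted p = 0.0027). In TL-CDK8i cells it fell to 115 CPM (log2 fold change -1.29, standard error 0.15, adjusted p = 9.8e-06 from edgeR), the same log2 fold change as POU5F1. SOX2 is also a factor of neural progenitors.

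Of the relatives of SALL4, SALL1 fell in 6 protocols and was not called in TL-CDK8i cells (log2 fold change -0.04). SALL2, a SALL gene with broader expression, fell in E-NHSM, TL-CDK8i, TL2i, 4i/L/b, and NHSM-v cells, with log2 fold changes of -1.33 to -0.83. It was at 312 CPM in LCDM (EPS) and 294 CPM in t2iLGöY cells beside 314 CPM in primed cells and was not called in either. SALL3 rose in t2iLGöY cells (0.98, adjusted p = 0.033) and fell in LCDM (EPS) cells (-2.42, adjusted p = 4.4e-04). DPPA2, the usual partner of DPPA4, rose in TL-CDK8i cells from 12.2 to 54.1 CPM (log2 fold change 2.10, standard error 0.25, adjusted p = 8.8e-06), where DPPA4 fell. It was not called in E-NHSM cells (0.71) and fell in the 5 protocols, with no count in NHSM-v and LCDM (EPS) cells. DPPA3 could be tested in E-NHSM and TL2i cells alone and was not called, at 4.54 and 2.31 CPM beside 0.676 CPM in primed cells, and DPPA5 could not be tested.

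In the LIN28 and let-7 pathway, TL2i cells had the highest mean levels among the 5 protocols. LIN28A, an RNA-binding protein that blocks let-7 maturation, was at 271 CPM in TL2i cells and at 42.5 or less in 4i/L/b, LCDM (EPS), t2iLGöY, and NHSM-v cells, beside 573 CPM in primed cells. LIN28B was not called in TL2i cells (-0.04, standard error 0.15). TRIM71, a let-7 target expressed in early embryos, fell in 6 protocols, by 0.63 in TL-CDK8i to 7.19 in NHSM-v cells. Of the stem cell restricted nuclear factors, VRTN fell in all 7 protocols, and ZFP42 fell in 6 and had no count in NHSM-v and t2iLGöY cells. JARID2, a partner of Polycomb complexes, fell by 2.67 to 3.23 in the 5 protocols. FOXD3 rose in TL2i cells (0.55, adjusted p = 0.042) and fell in the other 6 protocols, with log2 fold changes of -5.78 to -1.23. MYCN rose in TL-CDK8i (0.81) and TL2i cells (0.68) and fell in the other 5, with -2.93 to -0.89. FOXD3 and MYCN are also expressed in the neural crest. CBFA2T2, a co-repressor that binds PRDM14, rose in LCDM (EPS), t2iLGöY, and NHSM-v cells by 1.36, 0.96, and 0.49. It fell in 4i/L/b cells (-0.59, adjusted p = 0.0084) and was not called in the other 3 protocols.

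TDGF1, a co-receptor of Nodal, fell in all 7 protocols, by 0.33 in E-NHSM and 3.15 in TL-CDK8i cells, and had no count in t2iLGöY cells. NODAL itself was not called in E-NHSM cells (0.02) and fell in the other 6, whereas GDF3, a related ligand, rose in TL-CDK8i cells (1.42, standard error 0.30, adjusted p = 0.0015), was not called in E-NHSM cells, and fell in the 5 protocols. DNMT3B had log2 fold changes of -6.92 to -4.82 in the 5 protocols and TERF1, a telomere protein, of -3.77 to -3.06, all called. Of the surface proteins, EPCAM, PODXL, and CDH1, the epithelial cadherin, rose in E-NHSM cells (0.46, 0.40, and 1.74) and fell in the other 6 protocols. ALPL rose in TL-CDK8i cells (0.34, adjusted p = 0.039), was not called in E-NHSM cells (0.19), and fell in the 5 protocols, with log2 fold changes of -3.59 to -0.57.

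**Figure D4:**
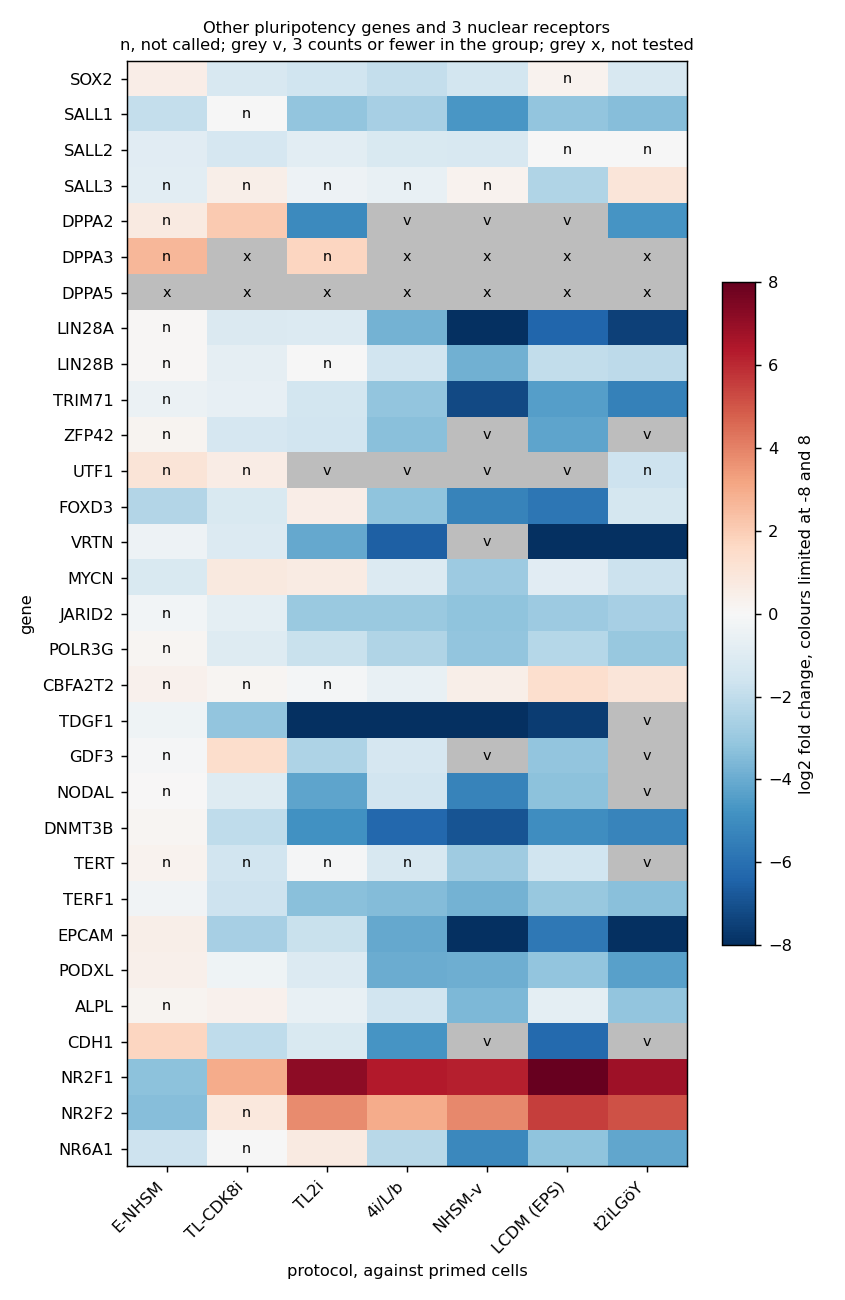
Log2 fold change against primed cells (colour, limited at -8 and 8) of the 28 other pluripotency genes and 3 nuclear receptors (y axis) in the 7 protocols (x axis); n marks values not called, grey v groups of 3 counts or fewer, and grey x genes not tested. Blue dominates the 5 protocols on the right, while NR2F1 and NR2F2 are red there. SALL2 (-1.28 to -0.01) and CBFA2T2 (-0.59 to 1.36) look pale there at these colour limits. SALL2 was nonetheless called lower in TL2i, 4i/L/b, and NHSM-v cells, and CBFA2T2 in 4i/L/b cells.

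NR2F1 and NR2F2, which encode the COUP-TF nuclear receptors, and NR6A1, which encodes GCNF, are known to bind and repress POU5F1. NR2F1 was at 0.76 to 4.58 CPM in primed libraries and at 897 to 986 CPM in LCDM (EPS), 434 to 490 in TL2i, 313 to 373 in t2iLGöY, 251 to 273 in 4i/L/b, and 234 to 251 CPM in NHSM-v libraries. Its log2 fold changes there ran from 6.21 to 8.19. NR2F2 rose in the same 5 protocols by 2.99 to 5.53. All 3 receptors fell in E-NHSM cells, NR2F1 by 3.27 (standard error 1.07, adjusted p = 0.03). In TL-CDK8i libraries NR2F1 was at 65.1, 8.81, and 6.09 CPM. Its call there (2.97, adjusted p = 0.0014) rested on replicate 1 (1.14, adjusted p = 0.18 without it). NR6A1 rose in TL2i cells (0.71, adjusted p = 0.0054) and fell in 4i/L/b, NHSM-v, LCDM (EPS), and t2iLGöY cells, with log2 fold changes of -5.15 to -2.25. The part of these receptors in the levels of POU5F1 was not tested.

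Markers of other cell types were counted in the same libraries. In a protocol 7 to 11 of 11 neural and 8 to 10 of 10 mesenchymal markers could be tested. Untested genes could not be called. Of all genes tested, 11.1% were called higher in E-NHSM, 22.3% in TL-CDK8i, and 25.6% to 28.2% in the 5 protocols. Called lower were 15.1% in E-NHSM, 23.8% in TL-CDK8i, and 25.2% to 30.6% in the 5 protocols. Of 11 neural markers, 7 rose in TL2i, 8 in 4i/L/b, 10 in NHSM-v, 11 in LCDM (EPS), and 10 in t2iLGöY cells, against 1 in E-NHSM and 4 in TL-CDK8i cells. Of the same list 3 fell in E-NHSM, 1 each in TL-CDK8i, NHSM-v, and t2iLGöY, and 0 in the other protocols. Their summed level was 2440 to 2770 CPM in primed, 1330 to 1500 in E-NHSM, and 2230 to 2350 in TL-CDK8i libraries. It was 2980 to 3130 CPM in TL2i, 3430 to 3630 in 4i/L/b, 3870 to 3950 in NHSM-v, 4630 to 5080 in t2iLGöY, and 7460 to 7760 in LCDM (EPS) libraries. NES alone made up most of the sum in primed, E-NHSM, TL-CDK8i, TL2i, and 4i/L/b cells (means 2430, 1290, 1890, 2360, and 2530 CPM). In the 5 protocols NES had means from 1850 CPM in t2iLGöY to 3090 CPM in LCDM (EPS) cells. NEUROG2 was at 0 in E-NHSM cells, and none of the 11 was at 0 in the 5 protocols (0 genes). Of 10 mesenchymal and fibroblast markers, 8 rose in TL-CDK8i, TL2i, and 4i/L/b cells, 7 in NHSM-v, 3 in t2iLGöY, 2 in LCDM (EPS), and 1 in E-NHSM cells. In turn 5 fell in E-NHSM, 4 in LCDM (EPS), 2 in t2iLGöY, 1 each in TL2i and 4i/L/b, and 0 in TL-CDK8i and NHSM-v cells. They summed to 1140 to 2420 CPM in primed, 456 to 496 in E-NHSM, 789 to 1020 in LCDM (EPS), and 3440 to 4050 in t2iLGöY libraries. Their sum was 2980 to 5780 CPM in TL2i, 7890 to 8430 in NHSM-v, 8770 to 11300 in TL-CDK8i, and 11700 to 15100 in 4i/L/b libraries. COL1A1 alone made up most of the sum in 4i/L/b (mean 9230 CPM), TL-CDK8i (7380), NHSM-v (6370), t2iLGöY (3140), and TL2i cells (2410). It did so also in primed (1290) and LCDM (EPS) cells (629), whereas E-NHSM cells had 194 CPM of COL1A1 and 196 CPM of COL1A2. DCN and LUM were at 0 in primed, E-NHSM, and t2iLGöY cells. The part of such cells in the members' levels was not tested.

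In a protocol 5 to 8 of 8 endoderm, 4 to 6 of 8 mesoderm, and 2 to 5 of 7 trophoblast markers could be tested. The shares of all genes called are those given above. Of 8 endoderm markers, 5 rose in TL2i, 3 in TL-CDK8i, 0 in E-NHSM, and 1 in each of the other protocols. Endoderm markers fell in NHSM-v and t2iLGöY (3 each) and in TL2i, 4i/L/b, and LCDM (EPS) cells (1 each). Their sum was 14.1 to 86.9 CPM in primed, 11.4 to 20.1 in E-NHSM, 102 to 150 in TL-CDK8i, and 48 to 168 CPM in libraries of the 5 protocols. CXCR4 alone made up most of the sum in LCDM (EPS) (mean 127 CPM), NHSM-v (66.1), and t2iLGöY cells (50). In TL2i, 4i/L/b, and TL-CDK8i cells CXCR4 was at 20.6, 26.1, and 38.8 CPM. Of 8 mesoderm markers, 3 rose in TL-CDK8i, 1 in TL2i, and 0 in the other protocols, while 3 fell in TL2i, LCDM (EPS), and t2iLGöY, 2 in E-NHSM, 4i/L/b, and NHSM-v, and 1 in TL-CDK8i cells. Mesoderm markers had a sum of 66.4 to 113 CPM in primed, 27.8 to 33.3 in E-NHSM, 75.5 to 143 in TL-CDK8i, and 5.36 to 66.4 CPM in the 5 protocols, and MSGN1 was at 0 in every group. Of 7 trophoblast markers, 3 rose in TL2i, 1 each in TL-CDK8i, NHSM-v, LCDM (EPS), and t2iLGöY, and 0 in E-NHSM and 4i/L/b cells, while 2 fell in E-NHSM, 1 each in 4i/L/b, LCDM (EPS), and t2iLGöY, and 0 in the others. Their sum was 3.59 to 14.7 CPM in primed, 2.96 to 5.06 in E-NHSM, 7.78 to 11.4 in 4i/L/b, and 20.1 to 25.6 in NHSM-v libraries. It was 102 to 106 CPM in TL2i, 109 to 163 in t2iLGöY, 173 to 190 in LCDM (EPS), and 148 to 234 in TL-CDK8i libraries, in which CGA and ELF5 were at 0. Most of each of these larger sums came from a single gene, KRT7 in TL-CDK8i cells (mean 162 CPM) and TFAP2A, which is also expressed in the neural crest, in TL2i (82.1), t2iLGöY (134), and LCDM (EPS) cells (181). KRT7 was at 0 in t2iLGöY and LCDM (EPS) cells.

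For each member, the 3 genes with the most similar profile were found by Pearson's correlation of log2 CPM over the 27 libraries, among 14752 genes. The libraries form the upper and lower band described above and share these groups, so the values are a description with no test. They were IFITM1, LCK, and PTGES3 for POU5F1 (r = 0.983, 0.981, and 0.979), and JARID2, IFITM1, and ZMYND8 for NANOG (0.984, 0.979, and 0.976). For PRDM14 they were PHC1, CECR5, and JARID2 (0.981, 0.978, and 0.975), and for DPPA4 VRTN, PRDX6, and F11R (0.970, 0.967, and 0.966). L1TD1 was closest to TGIF1, SERPINB6, and NPC2 (0.964, 0.963, and 0.963), and SALL4 to CSE1L, PODXL, and F11R (0.987, 0.977, and 0.976). Between members, r was highest for POU5F1 and NANOG (0.978), and the 5 lowest values, 0.845 to 0.893, were those with L1TD1. With Spearman's correlation CSE1L for SALL4 was still among the first 3, and none of the other genes was for its member.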

How the data were processed

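Strand-specific mRNA libraries (NextFlex) were read from 1 end on a NextSeq500. Per the labels, the authors used bcl2fastq, cutadapt, HISAT2, and HTSeq, and deposited raw counts per gene symbol. Versions, genome build, and annotation are not given in the sources used here, so no coordinates or sequences are printed. Samples were grouped by their labels, and no column of the tables was left unmatched (0 columns). Primed columns carry the letters J and K, which were not assigned to the sets named in the labels, where the protocol label and title disagree for 2 libraries.

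Counts were analysed in R 4.3.3 with edgeR 4.0.16 (TMM scaling, filterByExpr, quasi-likelihood test, Benjamini-Hochberg adjustment over all genes tested, threshold 0.05). Each protocol was fitted with primed cells alone, and the 21 protocol pairs came from one fit of the 21 protocol libraries. CPM used TMM-scaled library sizes, and 95% intervals of log2 differences used the t quantile at the test's degrees of freedom. Groups of 3 counts or fewer were given no fitted fold, and intervals for them are exact Poisson at 95%. The test was checked on simulated data. Alternatives were DESeq2 1.42.0, upper-quartile scaling, no filter, a minimum log2 fold change of 1, a replicate block, other sets of libraries, and leaving out each library.

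The 6 members were named by symbol. Other genes came from lists of pluripotency genes, nuclear receptors, and markers, which were counted whole and named by role, apart from some genes that are not reported here. NR2F1 and NR2F2 were refitted without TL-CDK8i replicate 1, an alternative added after the data were seen. The 3 most similar genes were taken by rank of Pearson's r. Members and lists were chosen with earlier results of these data known, and the ratio test was added after values were seen.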

Additional observations from a re-analysis of the deposited data

How the results depend on the processing

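Where a member was called in the main fit or in the alternative, its log2 fold change never changed sign (0 reversed). Changes of sign between values called in neither were not counted. Against primed cells 699 values kept their call, 8 lost it, and 7 gained it, and between protocols 3091 kept it, 48 lost it, and 6 gained it. A test against a minimum absolute log2 fold change of 1 left 1 member lower and 0 higher in E-NHSM and 3 lower in TL-CDK8i cells. Between protocols it left 3 called for E-NHSM against TL-CDK8i, 1 for 4i/L/b against LCDM (EPS), 1 for 4i/L/b against t2iLGöY, 0 for NHSM-v against t2iLGöY, and 2 for LCDM (EPS) against t2iLGöY. SALL4 also lost its call for TL-CDK8i against TL2i, 4i/L/b against NHSM-v, and NHSM-v against LCDM (EPS). L1TD1 lost its call for TL-CDK8i against NHSM-v and TL2i against t2iLGöY. NANOG lost its call for TL2i against NHSM-v and, together with POU5F1, for TL2i against LCDM (EPS). By its construction that test asks for more than a difference from 0. With all 8 groups in one fit, 1 member was higher in E-NHSM cells. DESeq2 called 2 members for NHSM-v against t2iLGöY. Fits of 2 protocols alone called 3 members for TL2i against LCDM (EPS) and 1 for LCDM (EPS) against t2iLGöY. In the TL2i pair POU5F1 lost its call (1.04, adjusted p = 0.051 from edgeR). NANOG and PRDM14 did not pass the filter on low counts there and were not tested. In the t2iLGöY pair POU5F1, DPPA4, and SALL4 lost theirs (adjusted p = 0.29, 0.34, and 0.057 from edgeR). PRDM14 was likewise not tested. Members left untested are not among the values tallied above. The cause of the other changes was not tested.

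Leaving out each library gave 1 to 3 members higher in E-NHSM cells. It gave 2 to 4 called for 4i/L/b against LCDM (EPS), 1 to 2 for NHSM-v against t2iLGöY, and 2 to 5 for LCDM (EPS) against t2iLGöY, the lowest without LCDM (EPS) replicate 1. With the replicate number as a block, 6 members were lower in TL2i cells and no call on a member changed. Of 28 pairs of groups, 0 had every correlation of same-numbered libraries over 0.1 (range -0.127 to 0.064), so the numbers were not read as pairing. Another scaling moved the median of all genes by up to 0.1 (log2). Levels under about 1 CPM rest on a few counts, which limits comparisons among the 5 protocols for POU5F1, NANOG, PRDM14, and DPPA4.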
